A study of Mus musculus with 6 samples.

Results

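The 232 promoter windows described here were those that gained accessibility in Kat7-knockout medullary thymic epithelial cells, out of 25542 windows on chromosomes 1 to 19 and 27095 windows in all. A window spans up to 3000 bases before and 2000 bases after a gene start, and its level is given as CPM, its count over the library total per 1000000 counts. A window was a member when its mean over the 3 knockout libraries was at least 3 CPM and at least 1.6 times the wildtype mean, with every knockout library above every wildtype library. Members were thus chosen by their CPM in this same knockout against wildtype contrast, so levels and ratios of the members below are descriptions and carry no test.

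Accessibility was measured by ATAC-seq, an assay that reads out where a transposase, Tn5, can reach the DNA. The knockout group held 3 libraries from Kat7-knockout mice and the wildtype group 3 libraries from wildtype mice, all on the C57BL/6 background, each library from its own biological replicate, with no treatment named. All 6 libraries came from MHCII-high medullary thymic epithelial cells, the thymic stroma that shows self-antigens to developing T cells. Which exons of Kat7 were removed, by what driver and in which cells, and how old the mice were, is not given in the sources used here.

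KAT7, a MYST-family enzyme, acetylates histone H3, lysine 14 among other residues, around gene starts. Medullary thymic epithelium is known for opening and transcribing, in small fractions of its cells, genes otherwise restricted to other tissues. It also contains cells that resemble peripheral cell types, such as tuft cells, which carry taste-receptor signalling. In bulk libraries such as these, fewer cells of a type and less signal per cell cannot be told apart, and the same holds for more cells and more signal.

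Library totals were 19740835, 16107353 and 15482439 counts in the knockout libraries, against 19832326, 15494911 and 16388648 in the wildtype libraries. The Kat7 window itself held 10.5, 13.7 and 40.5 CPM in the knockout libraries, against 286, 241 and 281 CPM in the wildtype libraries, so it was lower in every knockout library. Replicate 1 stood apart in both groups: knockout 1 was the lowest knockout library in 143 of the 232 members, and wildtype 1 was the lowest wildtype library in 205. Windows of olfactory and vomeronasal receptor genes outside the members, genes silent in most tissues, took 0.229% ± 0.0829 of knockout counts and 0.181% ± 0.0333 of wildtype counts (SD, n = 3 each; exact two-sided permutation p = 0.5, smallest possible p 0.1). Those receptor shares were 0.136%, 0.259% and 0.294% in the knockout libraries, against 0.145%, 0.188% and 0.210% in the wildtype libraries. Knockout 1 was thus below every wildtype library, and knockout 2 and knockout 3 were above every one. Mitochondrial windows took 0.630%, 0.777% and 0.697% of the knockout counts, against 0.238%, 0.478% and 0.445% of the wildtype counts (exact two-sided permutation p = 0.1). The part of either measure in the membership of a window was not tested; with mitochondrial counts taken out of the totals, 235 windows met the rule, all 232 members among them. Medullary epithelial markers were open in every library: the summed level of 16 marker windows was 2403 to 2450 CPM in the knockout libraries and 2411 to 2500 CPM in the wildtype libraries.

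Sequences from the chromosome 11 and chromosome 3 groups of neighbouring members are shown first, because these groups differ in base composition. Each line is the RefSeq promoter (250 bases before to 50 bases after the gene start, build GRCm38.p6, read 5′ to 3′ on the gene's strand), with each CG dinucleotide in capitals. Foxn1 lies at chr11:78386559-78386858 on the minus strand, Unc119 at chr11:78343245-78343544 on the plus strand, Aadac at chr3:60031538-60031837 on the plus strand and Aadacl2 at chr3:60006493-60006792 on the plus strand.
Foxn1: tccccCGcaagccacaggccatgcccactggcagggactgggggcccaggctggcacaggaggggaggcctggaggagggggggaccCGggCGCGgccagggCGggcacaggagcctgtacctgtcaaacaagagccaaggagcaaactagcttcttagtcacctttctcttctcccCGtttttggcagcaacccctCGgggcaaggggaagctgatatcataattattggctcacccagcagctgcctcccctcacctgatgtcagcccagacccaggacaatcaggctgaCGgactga
Unc119: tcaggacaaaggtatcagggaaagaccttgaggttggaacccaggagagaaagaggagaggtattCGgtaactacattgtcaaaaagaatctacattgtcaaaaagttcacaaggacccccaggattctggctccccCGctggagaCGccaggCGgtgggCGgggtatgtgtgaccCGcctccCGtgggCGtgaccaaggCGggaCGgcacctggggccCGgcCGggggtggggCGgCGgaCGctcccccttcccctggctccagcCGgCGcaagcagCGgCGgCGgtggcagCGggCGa
Aadac: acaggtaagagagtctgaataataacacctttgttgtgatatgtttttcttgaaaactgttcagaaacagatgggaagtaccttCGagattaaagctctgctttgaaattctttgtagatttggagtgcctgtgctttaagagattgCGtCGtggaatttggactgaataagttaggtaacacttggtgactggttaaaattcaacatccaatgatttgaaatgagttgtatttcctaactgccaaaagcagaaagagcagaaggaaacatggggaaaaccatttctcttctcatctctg
Aadacl2: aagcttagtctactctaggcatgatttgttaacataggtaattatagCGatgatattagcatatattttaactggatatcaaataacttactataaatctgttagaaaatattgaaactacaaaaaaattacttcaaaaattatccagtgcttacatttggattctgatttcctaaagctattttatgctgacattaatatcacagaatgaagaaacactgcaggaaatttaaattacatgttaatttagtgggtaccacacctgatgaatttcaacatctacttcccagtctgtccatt
The Foxn1 promoter had 8 CG dinucleotides and 62.7% G+C, and that of Unc119 had 22 and 64.0%. The Aadac promoter had 3 CG dinucleotides and 37.3% G+C, and that of Aadacl2 had 1 and 29.3%. Members with high ratios therefore included both kinds of promoter.

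The members were a small group, 0.908% of the windows on chromosomes 1 to 19 and 1.46% of the 15901 of these with a knockout mean of at least 3 CPM. By the mirrored rule, 3050 windows were lower in the knockout libraries. Among the 15901 windows, 23.8% had every knockout library above every wildtype library, so most windows with that separation fell short of the ratio. In edgeR's quasi-likelihood test across 24817 windows, 6.36% were called higher in knockout cells and 20.2% lower, at an adjusted p of 0.05. Of all calls, 23.9% were higher, against 35.6% with library totals in place of TMM factors and 47.7% with loess scaling. All 232 members passed the filter on low counts and 228 were called higher, a count that the rule itself largely fixes. The exceptions were Gm19446, Gm20594, Mir344c and Olfr107.

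Levels of the members were modest. Knockout means ran between 3.04 and 296 CPM with a median of 12.1 CPM, and wildtype means between 0.957 and 118 CPM with a median of 6.57 CPM. The median ratio was 1.85, with quartiles of 1.69 and 2.15, and 74 members reached a ratio of 2, 25 a ratio of 2.5 and 4 a ratio of 3. Over all 15901 windows of at least 3 CPM, the median knockout mean was 36.5 CPM and the median wildtype mean 42.0 CPM, with a median ratio of 0.978. The members thus sat low on the scale of accessible promoters, with 108 of them under 10 CPM and 59 at 30 CPM or more.

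**Figure D1:**
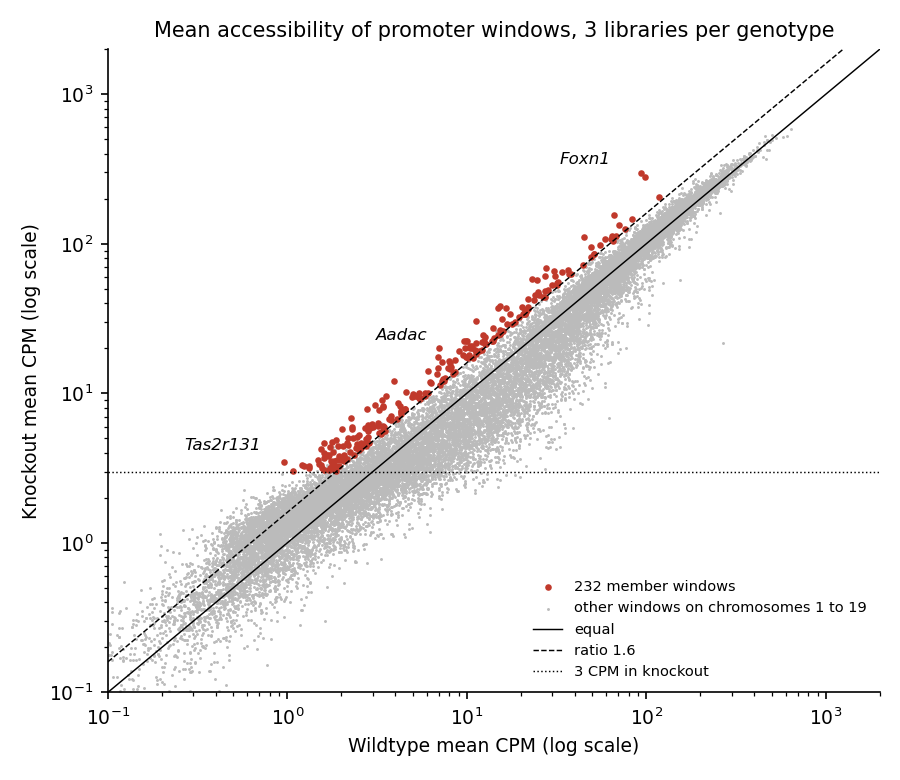
Mean accessibility of each window on chromosomes 1 to 19, with the knockout mean in CPM on the vertical log axis and the wildtype mean in CPM on the horizontal log axis; lines mark equality and a ratio of 1.6. The 232 member windows lie above the dashed line, between 3.04 and 296 CPM in knockout.

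Windows just past the ratio were A3galt2 (22.4 CPM in knockout, 13.97 CPM in wildtype), Cryba2 and Utp18, at ratios of 1.603, 1.604 and 1.604. Just short of it were Gm19654 (8.75 CPM in knockout, 5.47 CPM in wildtype), Dph5 and Enpep, at ratios of 1.599, 1.597 and 1.595. Beyond these, 53 windows met the level and the ratio with libraries of both groups overlapping, and 290 met the ratio and the separation with a knockout mean under 3 CPM.

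Relative to the wildtype mean of the same window, the median member stood at 1.71 in knockout 1, 1.88 in knockout 2 and 1.93 in knockout 3, against 0.819 in wildtype 1, 1.16 in wildtype 2 and 1.02 in wildtype 3. Knockout 1 was the lowest knockout library in 84 of the 108 members under 10 CPM and in 59 of the 124 higher ones. Wildtype 2 was the highest wildtype library in 72 of those 108 and in 109 of those 124. The median gap between the lowest knockout and the highest wildtype library was 1.41-fold. Membership depended on single libraries: without knockout 1, 567 windows met the rule and 226 of the members were among them, whereas without wildtype 1 only 151 did, 149 of them members. Without wildtype 2, 355 windows met the rule. Of the 567 windows found without knockout 1, 47.1% were above every wildtype library in knockout 1 as well.

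**Figure D2:**
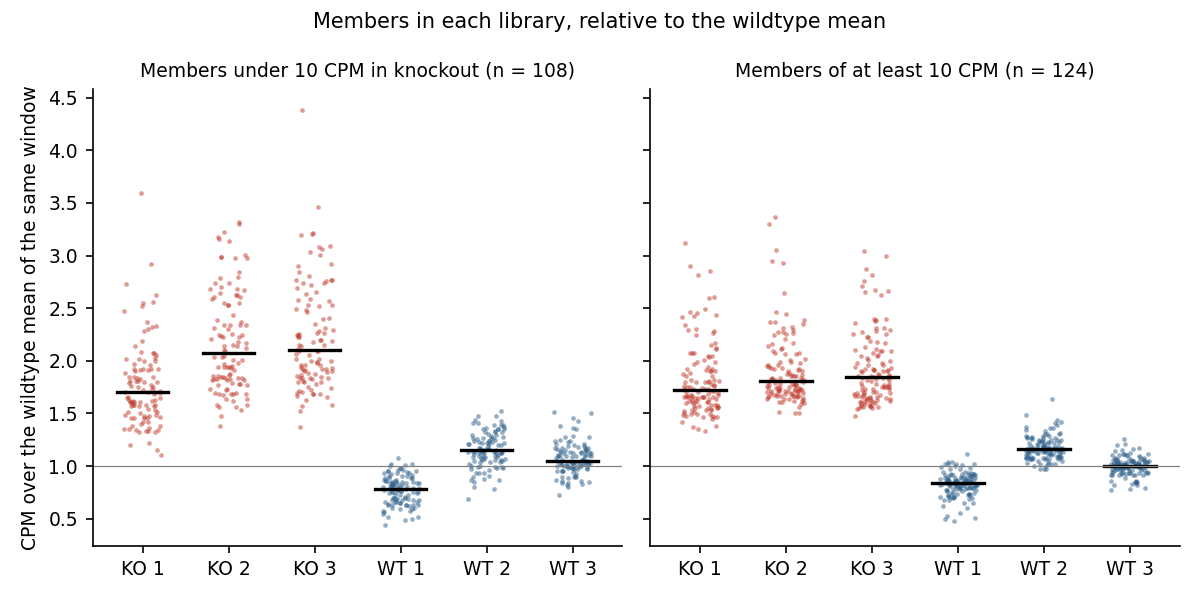
Level of each member in each library as CPM over the wildtype mean of that window, for members under 10 CPM (n = 108) and of at least 10 CPM (n = 124). Knockout 1 lies below the other knockout libraries among members under 10 CPM (median 1.70 against 2.07 and 2.11), and wildtype 1 lies lowest in both panels.

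The window of Foxn1, the forkhead transcription factor required for thymic epithelial development, had the highest knockout level of all members. It spans positions 78384558 to 78389558 of chromosome 11 (mm10) and held 293, 309.6 and 285 CPM in the knockout libraries, against 78.1, 122 and 80.7 CPM in the wildtype libraries. The groups were far apart, with the lowest knockout library more than 2 times the highest wildtype library, and the means were 296 ± 12.6 and 93.7 ± 24.9 CPM (SD, n = 3 each), a ratio of 3.16. Foxn1 was part of an unbroken run: all 4 windows between positions 78340522 and 78425185 of chromosome 11, over 84.7 kb, were members, and none shared bases with another.

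Its neighbours were higher as well. Slc13a2os, a non-coding gene on the strand opposite Slc13a2, held 276, 299 and 259.8 CPM in the knockout libraries, against 80.4, 130.4 and 82.9 CPM in the wildtype libraries. Slc13a2, which encodes a sodium-coupled carrier of citrate and other dicarboxylates in kidney and intestine, held 155, 156 and 158 CPM in the knockout libraries, against 58.9, 75.3 and 64 CPM in the wildtype libraries. Unc119, a lipid-binding protein that carries cargo to photoreceptor cilia, held 108, 118 and 107 CPM in the knockout libraries, against 38.9, 53.7 and 41.7 CPM in the wildtype libraries. In all 4 windows wildtype 2 was the highest wildtype library and no wildtype library reached a knockout one. All 4 met the rule with any 1 library left out. Of 12 genes listed as FOXN1 targets in cortical epithelium, none was a member, where 1.46% of all windows of at least 3 CPM were. EdgeR called 3 of the 12 higher and 3 lower, against 6.36% and 20.2% of all tested windows. The median log2 fold change of the 12 was 0.03 against 0.04 over all tested windows.

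A run on chromosome 3, between positions 59922214 and 60083869, also held members alone: 5 of 5 windows over 162 kb. Aadac, arylacetamide deacetylase, a hydrolase of liver and intestine, held 20.2, 20.4 and 20.02 CPM in the knockout libraries, against 4.19, 9.87 and 6.83 CPM in the wildtype libraries. Its relative Aadacl2 held 11.2, 13.3 and 11.8 CPM in the knockout libraries, against 2.02, 5.29 and 4.52 CPM in the wildtype libraries, a ratio of 3.07. Knockout libraries varied little in both windows, while wildtype 1 was well below wildtype 2. Aadacl2fm1 had a ratio of 1.74, and Gm9696, a predicted gene, a ratio of 1.72 at only 3.17 CPM in knockout and 1.84 CPM in wildtype. At the end of the run, Sucnr1, the receptor for succinate that tuft cells use to sense it, held 24.9, 25 and 23.5 CPM in the knockout libraries, against 12.3, 17.6 and 15.1 CPM in the wildtype libraries. Without wildtype 1, 3 of these 5 windows met the rule.

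Bitter taste receptor genes (Tas2r), which encode G protein-coupled receptors for bitter compounds, formed the most numerous named family. The members included 14 of them, 6.03% of the members and 0.113% of the windows of at least 3 CPM, which held 18 Tas2r windows. Tas2r131 had the highest ratio of all members, 3.66, with 68, 46 and 65 counts in the knockout libraries against 12, 20 and 16 in the wildtype libraries, or 3.44, 2.86 and 4.2 CPM in the knockout libraries, against 0.605, 1.29 and 0.976 CPM in the wildtype libraries. Tas2r117 held 4.76, 6.39 and 6.2 CPM in the knockout libraries, against 1.61, 2.71 and 1.71 CPM in the wildtype libraries. Tas2r118 held 7.04, 8.32 and 8.14 CPM in the knockout libraries, against 2.02, 3.42 and 2.93 CPM in the wildtype libraries. Tas2r126, the Tas2r member with the highest level, held 12.4, 14.2 and 14.1 CPM in the knockout libraries, against 6.1, 7.29 and 7.14 CPM in the wildtype libraries. In each of these windows the lowest knockout library was above the highest wildtype library, as the rule requires, but in 13 of the 14 windows the knockout mean was under 10 CPM.

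Ratios above 1 were also found at Tas2r windows outside the members. Of the 20 such windows with a mean of at least 1 CPM, all 20 had a ratio above 1, with a median of 1.68. In 12 of these 20, every knockout library was above every wildtype library, and edgeR called 8 of 20 higher. That separation held in 23.8% of all windows with a knockout mean of at least 3 CPM, a level that most of these 20 windows did not reach. The share over all windows of at least 1 CPM is not given here, so the 23.8% is not a matched comparison. Of all tested windows, 6.36% were called higher. Over the whole family the values include the members, which were chosen for a high ratio. Of 35 Tas2r windows, 34 had a mean of at least 1 CPM, and all 34 had a ratio above 1, with a median of 2.31 and a range between 1.154 and 3.901. In 26 of the 34, every knockout library was above every wildtype library, while 17 of the family's windows were under 3 CPM in knockout. EdgeR called 22 of 34 tested windows higher and 0 lower, against 6.36% and 20.2% of all tested windows. The family's median log2 fold change was 1.23 against 0.04 over all tested windows. In comparison, the 613 olfactory receptor windows with a mean of at least 1 CPM had a median ratio of 1.38, with 507 above 1. A chain of 10 Tas2r members lay between positions 132700090 and 132983965 of chromosome 6, over 284 kb, with 5 further Tas2r windows between them at ratios between 1.34 and 2.97. The genes are near relatives of each other; how reads matching several of them were counted is not given in the sources used here, so values of single Tas2r genes are less certain than those of the family.

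Clustered protocadherins, cell-adhesion proteins that neurons choose in random combinations, gave 9 members on chromosome 18, 3.88% of the members and 0.252% of the windows of at least 3 CPM. Pcdhb genes made up 8 of these, of 22 Pcdhb windows, and Pcdha9 was the other. Pcdhb17 held 8.81, 8.69 and 9.75 CPM in the knockout libraries, against 3.13, 3.49 and 3.48 CPM in the wildtype libraries. Pcdhb13 held 4.91, 6.39 and 6.33 CPM in the knockout libraries, against 2.37, 2.84 and 3.42 CPM in the wildtype libraries. Pcdha9 held 3.8, 5.65 and 6.33 CPM in the knockout libraries, against 2.37, 2.9 and 2.26 CPM in the wildtype libraries. All 9 were under 10 CPM in knockout, and Pcdhb15 and Pcdhb17 share bases with another window. The 14 Pcdhb windows outside the members had ratios above 1 in 13 of 14 and a median ratio of 1.63. Pcdhb1, at 6.56 CPM in knockout and 9.75 CPM in wildtype, was the exception. In only 1 of these 14 was every knockout library above every wildtype library. That separation held in 23.8% of all windows of at least 3 CPM, and 8 of the 22 Pcdhb windows were under 3 CPM in knockout. EdgeR called 2 of the 14 higher and 1 lower, against 6.36% and 20.2% of all tested windows. The neighbouring Pcdhg genes included 0 members in 22 windows, where 1.46% of all windows of at least 3 CPM were members. Their median ratio was 1.08, and the difference between the gene groups was not tested. Without knockout 1, 14 protocadherin windows met the rule.

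**Figure D3:**
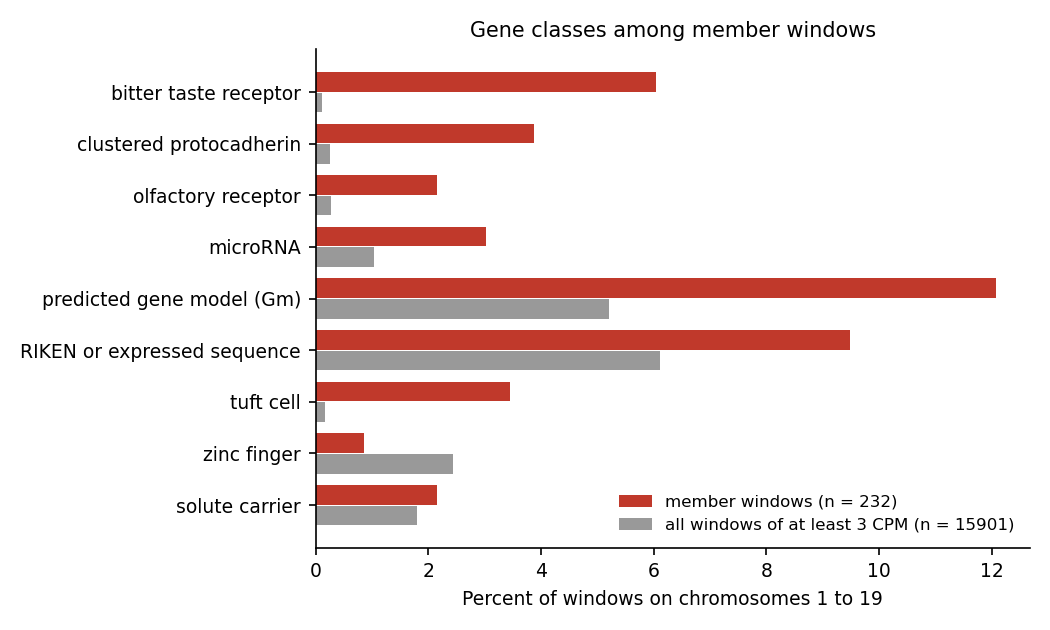
Percent of the 232 member windows and of the 15901 windows of at least 3 CPM that fell in each gene class. Bitter taste receptors made up 6.03% of members and 0.113% of these windows, and clustered protocadherins 3.88% and 0.252%.

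Other families contributed few windows each. Olfactory receptors gave 5 members (Olfr287, Olfr103, Olfr107, Olfr459 and Olfr543) and vomeronasal receptors gave Vmn2r117, or 2.16% and 0.431% of the members against 0.277% and 0.0377% of windows of at least 3 CPM. Olfr287 held 9.62, 9.87 and 9.37 CPM in the knockout libraries, against 2.32, 3.87 and 4.39 CPM in the wildtype libraries. Olfr107 held 25.9, 33.2 and 31.6 CPM in the knockout libraries, against 5.34, 18.5 and 9.95 CPM in the wildtype libraries, with wildtype 1 far below wildtype 2, and was not called by edgeR. Antigen receptor V segments numbered 5 (Trav5-1, Trav6n-7, Trav13-5, Trav18 and Igkv20-101-2), 2.16% of the members against 0.182% of windows of at least 3 CPM, with levels between 3.25 and 6.29 CPM in knockout and 1.55 and 3.21 CPM in wildtype. MicroRNA windows numbered 7, or 3.02% of the members against 1.03%, and included Mir99a, Mir378a and Mir688, which share bases with other windows.

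Predicted genes (Gm) numbered 28, 12.1% of the members against 5.21% of windows of at least 3 CPM, and RIKEN or expressed-sequence genes 22, 9.48% against 6.11%. By RefSeq gene type, 158 members were protein coding, 68.1% against 84.6% of windows of at least 3 CPM, and 29 were long non-coding RNA genes, 12.5% against 6.63%. Zinc finger genes, a large class, gave 2 members, 0.862% against 2.45%. These were Zfp872, at 71.4, 63.4 and 72.1 CPM in the knockout libraries, against 26.1, 29.9 and 26.4 CPM in the wildtype libraries, and Zbtb38, a methyl-CpG-binding repressor, at 34.3, 37 and 39.9 CPM in the knockout libraries, against 11.8, 17 and 16.2 CPM in the wildtype libraries. No member came from the keratin, kallikrein, ribosomal protein, collagen and laminin or Hox classes. These held 39, 19, 72, 41 and 39 windows of at least 3 CPM. Of all such windows 1.46% were members, so a count of 0 in classes of this size is near the overall share.

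Tuft cell genes stood among the members as receptors, signalling proteins and enzymes of taste-like chemosensation. Of 31 listed tuft cell windows, 8 were members (3.45% of the members, against 0.176% of windows of at least 3 CPM), with knockout means between 10.02 and 44.0 CPM and ratios between 1.62 and 2.21. Tas1r3, the receptor subunit shared by sweet and umami taste, held 22.8, 22.4 and 22.3 CPM in the knockout libraries, against 12.1, 14.5 and 15 CPM in the wildtype libraries. Gnat3, the G protein subunit gustducin, held 9.32, 10.7 and 10.3 CPM in the knockout libraries, against 3.63, 5.16 and 4.94 CPM in the wildtype libraries. Plcb2, the phospholipase of the taste cascade, held 44.1, 44.3 and 43.7 CPM in the knockout libraries, against 22.6, 32.3 and 26.6 CPM in the wildtype libraries. The last 2 differed in level but in both windows wildtype 1 was the lowest library of all. Rgs13, a regulator of G protein signalling, held 9.52, 9.44 and 11.1 CPM in the knockout libraries, against 4.08, 6.78 and 6.77 CPM in the wildtype libraries. Alox5, the lipoxygenase that starts leukotriene synthesis, held 16.4, 17.3 and 20.3 CPM in the knockout libraries, against 10.4, 10.6 and 9.64 CPM in the wildtype libraries. Ascl2, a basic helix-loop-helix transcription factor of intestinal stem cells, held 38.7, 36.1 and 38.8 CPM in the knockout libraries, against 19.9, 20.5 and 20.7 CPM in the wildtype libraries. Ascl2 and Alox5 had wildtype libraries within a narrow range, whereas wildtype 1 set the low end for Rgs13. Avil, the actin-binding protein advillin, held 22, 19.9 and 20.6 CPM in the knockout libraries, against 8.82, 12.5 and 11 CPM in the wildtype libraries in a window that shares bases with another.

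The tuft list as a whole was mixed. EdgeR called 12 of 31 windows higher, of which 8 were the members chosen on this contrast, and 3 lower. Over all tested windows, 6.36% were called higher and 20.2% lower. The list's median log2 fold change was 0.20 against 0.04 over all tested windows. Of the 23 windows outside the members, 4 were called higher and 3 lower. The median ratio of the 23 was 0.942, with 11 above 1. Without wildtype 1, 4 tuft windows met the rule in place of 8.

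Immune genes among the members were low in level. Themis, a signalling protein of developing T cells, held 5.77, 5.46 and 7.1 CPM in the knockout libraries, against 2.27, 3.29 and 2.87 CPM in the wildtype libraries. Cd8a held 3.55, 4.47 and 5.1 CPM in the knockout libraries, against 2.32, 2.07 and 2.93 CPM in the wildtype libraries. Cd4 held 2.84, 4.22 and 4.52 CPM in the knockout libraries, against 1.82, 2.71 and 2.56 CPM in the wildtype libraries, and these co-receptors define the main T cell lineages. They were 3 of 16 thymocyte markers, whose summed level was 181 to 207 CPM in the knockout libraries and 172 to 188 CPM in the wildtype libraries. EdgeR's 3 calls among the 13 tested thymocyte windows were these 3 members, all higher. Over all tested windows, 6.36% were called higher and 20.2% lower. The list's other windows ranged widely: Bcl11b, a T-lineage transcription factor, averaged 89.8 CPM in knockout and 77.4 CPM in wildtype, and Tcf7, another, 50.2 CPM in knockout and 53.8 CPM in wildtype. The CD3 chains of the T cell receptor complex averaged 7.53 CPM in knockout and 7.50 CPM in wildtype at Cd3e, 0.177 CPM in knockout and 0.212 CPM in wildtype at Cd3d, and 0.224 CPM in knockout and 0.232 CPM in wildtype at Cd3g. Cd4 missed the threshold in 7 of its alternative fits. Further members of this kind, chosen after their values were seen, were Ctla4, an inhibitory T cell receptor, Ptprc, the common leukocyte antigen, and Il10, an anti-inflammatory cytokine. Il10 held 57.3, 53.2 and 53 CPM in the knockout libraries, against 28.2, 36.2 and 31.3 CPM in the wildtype libraries, well above the others.

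Markers of other cell types gave few members, where 1.46% of all windows of at least 3 CPM were members. Dcn, the matrix proteoglycan decorin, was the one mesenchymal marker of 11, at 19.5, 25.5 and 21.4 CPM in the knockout libraries, against 9.53, 14.4 and 12.6 CPM in the wildtype libraries, while the summed mesenchymal level was 124 to 156 CPM in the knockout libraries and 210 to 224 CPM in the wildtype libraries. Of the 11 mesenchymal windows, edgeR called 2 higher, Dcn and Lum, and 6 lower, against 6.36% and 20.2% of all tested windows. Tek, the angiopoietin receptor, was the one endothelial marker of 10. Its summed list ran between 138 and 153 CPM in the knockout libraries and between 135 and 142 CPM in the wildtype libraries. Of these 10 windows, edgeR called 2 higher, Tek and Flt1, and 3 lower, against 6.36% and 20.2% of all tested windows. The 3 lower were Pecam1 (5.84 CPM in knockout, 14.8 CPM in wildtype), Kdr (3.33 CPM and 8.62 CPM) and Sox17 (2.42 CPM and 4.67 CPM). B cell markers gave no member, with 63.6 to 79.1 CPM in the knockout libraries and 139 to 149 CPM in the wildtype libraries, and 6 of 9 were called lower, against 20.2% of all tested windows. Myeloid and dendritic markers gave no member either, with 312 to 315 CPM in knockout and 305 to 313 CPM in wildtype. Zbtb46 made up a large part of these sums, at 168 CPM in knockout and 138 CPM in wildtype. Of the 14 windows, edgeR called 1 higher (Zbtb46) and 4 lower (Batf3, Lyz2, Csf1r and Flt3), against 6.36% and 20.2% of all tested windows. Cortical epithelial markers summed to 337 to 350 CPM in knockout and 302 to 332 CPM in wildtype with no member among 8. EdgeR called 3 of these 8 higher and 1 lower, against 6.36% and 20.2% of all tested windows. The part of other cells in the members' levels was not tested.

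Among members of at least 10 CPM, many were single genes with unrelated roles. Lgals12, a galectin of fat cells, held 201, 203 and 210.2 CPM in the knockout libraries, against 105, 129 and 119.6 CPM in the wildtype libraries and shares bases with Plaat5, a phospholipid acyltransferase, at 82.8, 83.5 and 80.3 CPM in the knockout libraries, against 45.5, 53.5 and 49.4 CPM in the wildtype libraries. Rims2, a presynaptic release protein, held 159.8, 151 and 131 CPM in the knockout libraries, against 84.6, 88.6 and 76.3 CPM in the wildtype libraries. Mlh3, a DNA mismatch repair protein, held 142, 129.9 and 128 CPM in the knockout libraries, against 60.9, 83.4 and 68.1 CPM in the wildtype libraries. Each was separated between groups by less than Foxn1, with ratios between 1.66 and 1.88. Slc7a11, the cystine and glutamate exchanger, held 127, 129.5 and 120.3 CPM in the knockout libraries, against 61.9, 95.1 and 72.3 CPM in the wildtype libraries. Tfap2a, a transcription factor of neural crest and epidermis, held 112, 117 and 109 CPM in the knockout libraries, against 63.6, 77.6 and 63.6 CPM in the wildtype libraries. Foxd3, a neural crest forkhead factor, held 106, 112 and 105 CPM in the knockout libraries, against 63.8, 68.7 and 59.2 CPM in the wildtype libraries. The Slc7a11 groups came closer than those of the transcription factors, since wildtype 2 reached 95.1 CPM there. Epgn, a ligand of the epidermal growth factor receptor, was the one member of 15 listed genes of that pathway, at 18.6, 19 and 22.7 CPM in the knockout libraries, against 8.87, 11.4 and 11 CPM in the wildtype libraries.

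Genes of muscle and nerve also appeared, chosen here after their values were seen. Acta2, smooth muscle actin, held 66.6, 66.7 and 64.9 CPM in the knockout libraries, against 27.4, 36.5 and 28.2 CPM in the wildtype libraries. Musk, the kinase of the neuromuscular junction, held 21, 24.5 and 25.7 CPM in the knockout libraries, against 8.77, 15.7 and 13.2 CPM in the wildtype libraries. Chrna9, an acetylcholine receptor subunit of hair cells, held 64.9, 65.5 and 63.9 CPM in the knockout libraries, against 29.4, 39 and 33.5 CPM in the wildtype libraries. Macc1, a regulator of the receptor MET, and Cpvl, a carboxypeptidase, were low with high ratios of 2.69 and 3.01. No member came from the lists for NF-kB (18 genes), p53 and DNA damage (19), AP-1 and immediate early genes (19), basal epithelium (21) or histone acetyltransferases (19). Of all windows of at least 3 CPM, 1.46% were members, so no member in lists of this size is near the overall share.

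Members were more often near each other than windows in general were near a member. Of the 232 members, 47 (20.3%) had another member within 100 kb. Of all windows on chromosomes 1 to 19, 3.16% had a member other than themselves within that distance, and 3.07% of those of at least 3 CPM. Without windows that share bases, the values were 19.2% of 193 members and 2.62% of all such windows. The 47 members formed 14 chains, of which 10 were pairs and the others held 4, 5, 8 and 10 members, so that 27 members lay in the 4 largest and 185 members lay alone. The chains of 10 and 8 members were tandem gene families, Tas2r and Pcdhb, so neighbouring members are not independent of each other.

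**Figure D4:**
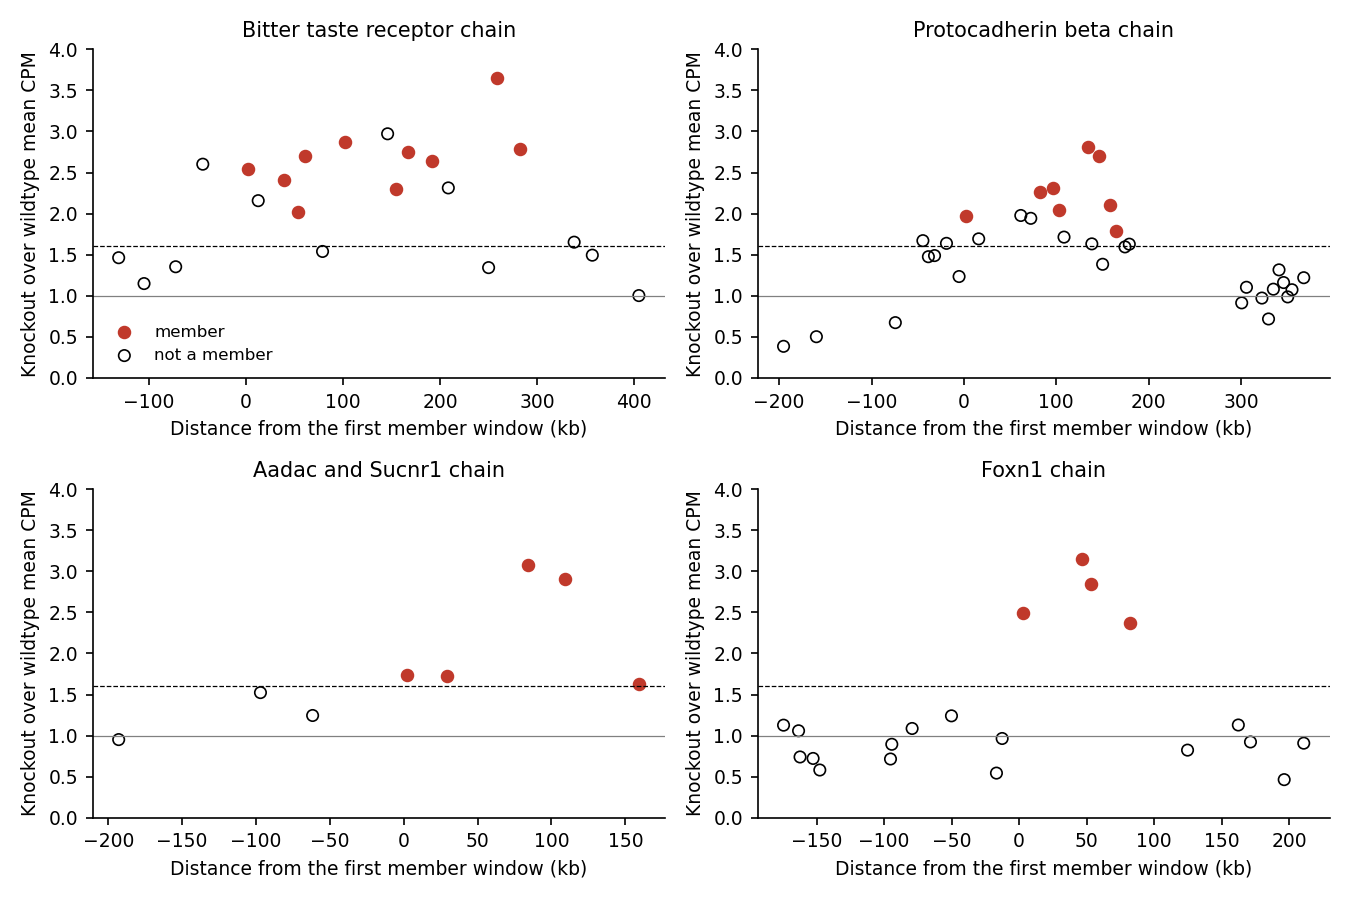
Ratio of knockout mean to wildtype mean for each window in and around the 4 largest chains, against distance in kb from the first member of the chain; filled points are members and open points are other windows. All windows inside the Foxn1 and Aadac chains are members, while 5 Tas2r and 6 Pcdhb windows inside their chains are not.

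The pairs joined related and unrelated genes. Related pairs were Nlrp1b with Nlrp1c-ps, inflammasome sensor and pseudogene, at ratios of 1.99 and 2.21, and Olfr103 with Olfr107. Nlrp1b held 23, 23.8 and 27.1 CPM in the knockout libraries, against 9.48, 15.2 and 12.4 CPM in the wildtype libraries. Olfr287 was paired with H1f7, a histone H1 of the male germ line, which held 102, 92.8 and 91.1 CPM in the knockout libraries, against 41, 57.2 and 49.2 CPM in the wildtype libraries. Ifi207 and Gm7897 formed a pair on chromosome 1, with Gm7897 at a ratio of 2.90 and 4.63 CPM in knockout. Chromosome 18 (14 members, 3.14% of its windows of at least 3 CPM) and chromosome 6 (27 members, 3.09%) had the highest shares, and chromosome 2 (7 members, 0.549%) the lowest.

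Non-members near a member had a ratio above 1 more often than those far from any. Among non-members that share no bases and average at least 1 CPM, 74.2% of 120 within 25 kb of a member had a ratio above 1, with a median of 1.14. The share was 62.9% between 25 and 50 kb, 62.1% between 50 and 100 kb, 56.0% between 100 and 250 kb and 50.6% of 16041 windows beyond 500 kb. With 500 kb around the 4 largest chains left out, it was 71.2% of 104 within 25 kb. Neighbouring windows of one gene family are counted here as separate windows, and these shares carry no test.

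**Figure D5:**
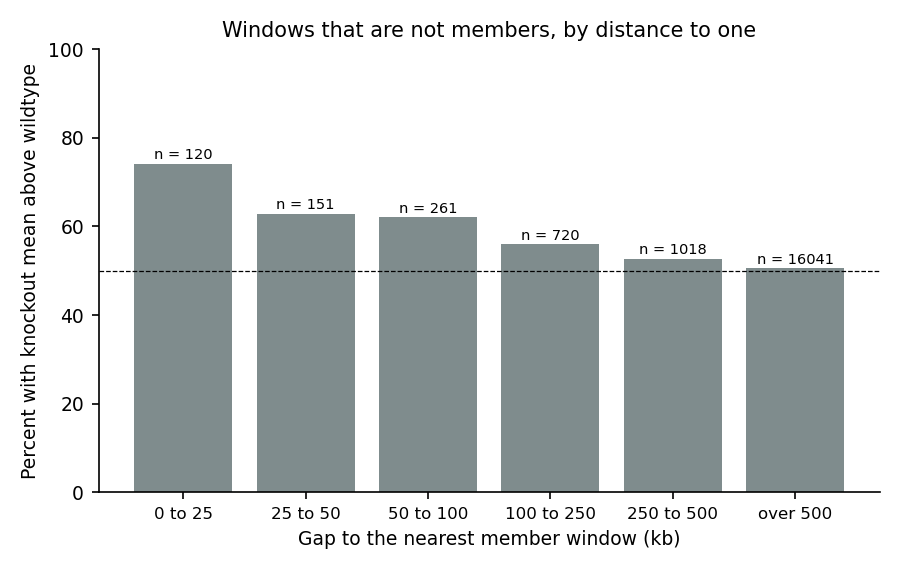
Percent of non-member windows with a knockout over wildtype ratio above 1, by gap in kb to the nearest member window. The share is 74.2% within 25 kb and 50.6% beyond 500 kb.

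Promoters of members were poor in CG dinucleotides. A RefSeq promoter was matched to 116 of the 145 protein-coding members searched, and to 15549 of 19408 such windows in all. Median G+C content was 48.0% in members and 57.3% in all matched promoters, and the median number of CG dinucleotides was 4 and 15. Promoters with at least 55% G+C and an observed over expected CG ratio of 0.65 or more made up 13.8% of members and 41.3% of all. A comparison at matched accessibility is void, because a promoter was matched to fewer than 80% of windows of 3 to 10 CPM (76.4%) and of members of at least 10 CPM (78.8%). The part of the members' low level in these differences was not tested. The GC box GGGCGG, searched like all motifs on both strands, was in 18.1% of members and 49.1% of all, and the TATA box TATAAA in 23.3% and 13.3%. CCAAT was in 40.5% and 38.7%, TGANTCA in 8.62% and 7.09%, CANNTG in 80.2% and 68.0%, CACCC in 54.3% and 59.1%, and the NF-kB consensus in 44.8% and 58.4%.

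The octamer ATGCAAAT, the letters that POU-domain factors are known to bind, was in 10 member promoters (8.62%) and in 267 of all (1.72%); without Tas2r genes it was in 5.71% of members. Those 10 were 1810046K07Rik, Ano7, Prx, Slc7a11, Sox1, Sucnr1, Tas2r107, Tas2r118, Tas2r126 and Tas2r144. Of these, 4 are shown because they cover Tas2r genes, a tuft cell gene and the promoter with 2 matches, with the octamer in capitals on either strand (build GRCm38.p6). Tas2r118 lies at chr6:23970011-23970310 on the minus strand, Tas2r126 at chr6:42434285-42434584 on the plus strand, Sucnr1 at chr3:60081619-60081918 on the plus strand and 1810046K07Rik at chr9:51328869-51329168 on the minus strand.
Tas2r118: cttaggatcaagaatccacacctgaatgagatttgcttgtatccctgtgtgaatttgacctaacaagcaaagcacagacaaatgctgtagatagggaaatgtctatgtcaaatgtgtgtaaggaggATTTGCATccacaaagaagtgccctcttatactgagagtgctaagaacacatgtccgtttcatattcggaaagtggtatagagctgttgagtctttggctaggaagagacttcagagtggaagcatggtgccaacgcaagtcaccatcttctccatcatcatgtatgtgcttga
Tas2r126: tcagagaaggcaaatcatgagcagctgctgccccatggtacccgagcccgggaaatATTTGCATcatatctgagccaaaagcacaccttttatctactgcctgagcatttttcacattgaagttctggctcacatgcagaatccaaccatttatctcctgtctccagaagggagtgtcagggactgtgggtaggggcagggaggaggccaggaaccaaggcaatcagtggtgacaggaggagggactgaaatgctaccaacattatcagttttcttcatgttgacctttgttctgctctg
Sucnr1: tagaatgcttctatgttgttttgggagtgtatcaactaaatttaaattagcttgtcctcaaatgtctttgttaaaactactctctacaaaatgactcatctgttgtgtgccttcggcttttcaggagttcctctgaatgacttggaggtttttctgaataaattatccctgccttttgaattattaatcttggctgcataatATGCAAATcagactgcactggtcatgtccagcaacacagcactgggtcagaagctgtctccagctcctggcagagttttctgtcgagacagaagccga
1810046K07Rik: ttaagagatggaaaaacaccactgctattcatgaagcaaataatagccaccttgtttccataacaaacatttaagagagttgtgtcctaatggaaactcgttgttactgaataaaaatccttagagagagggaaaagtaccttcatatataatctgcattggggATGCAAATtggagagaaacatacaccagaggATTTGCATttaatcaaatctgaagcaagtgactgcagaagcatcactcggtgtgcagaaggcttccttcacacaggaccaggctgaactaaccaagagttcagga
The match begins 124 bases before the start in Tas2r118, 194 in Tas2r126, 48 in Sucnr1, and 86 and 55 in 1810046K07Rik. The window of 1810046K07Rik held 14.4, 15.6 and 14.5 CPM in the knockout libraries, against 5.95, 8.91 and 5.98 CPM in the wildtype libraries. A match is a stretch of letters and was not tested as a binding site.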

How the data were processed

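The deposited values were raw counts per gene window in each of 6 libraries. The submitters' processing notes name featureCounts and the mm10 build. Sequencing was paired-end with 75-base reads, per the labels. The aligner, the treatment of duplicates and of reads matching several places, and any Tn5 offset correction were not given in the sources used here. Each library's own table equalled the series table. All windows of near-identical families, and the 39 members that share bases with another window, are less certain.

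CPM was computed from library totals without further scaling. The background test was edgeR 4.0.16 in R 4.3.3 (glmQLFit robust, glmQLFTest, TMM factors of 0.884 to 1.06, filterByExpr, Benjamini-Hochberg adjustment at 0.05); DESeq2 1.42.0 and limma 3.58.1 were used for alternatives. The tests were tried on simulated data. Single shares were compared by exact permutation of 6 libraries (scipy 1.17.1). A limit of 3 counts equals 0.151 to 0.194 CPM; this covers counting error only. Gene classes were assigned by symbol, with gene types and promoters from RefSeq.

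The members and the gene lists were chosen with earlier results of these data known, and the promoter set was restricted to protein-coding genes outside chromosome 18 after the matches were counted. Genes were named by a rule: 15 highest ratios without shared bases, 10 highest levels, the 6 largest chains, list members, and 3 windows on each side of the ratio threshold; all other genes named were chosen after their values were seen, as was the alternative without mitochondrial windows. One result is not reported here.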

Additional observations from a re-analysis of the deposited data

How the results depend on the processing

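The number of windows meeting the rule moved with its thresholds: 431 with a minimum of 1 CPM, 124 with 10 CPM, 74 with a ratio of 2 and 315 with a ratio of 1.5, against 232. Loess-normalised CPM gave 770 windows, 230 of them members, whereas TMM factors gave 236 and DESeq2 size factors 326. Leaving out 1 library gave 151 (without wildtype 1) to 567 (without knockout 1). The share of members with another within 100 kb was 16.4% at 50 kb and 26.3% at 250 kb, and 19.9% to 29.8% with 1 library left out. Windows called higher numbered 1578, and 2937 with library totals, 4732 with loess scaling, 3937 with a mean count of at least 50, 1918 with DESeq2, and 689 (without wildtype 1) to 3177 (without knockout 1). The cause of these shifts was not tested. Members called higher numbered 195 of 197 to 231 across tools, scalings and filters, and 202 to 228 with 1 library left out. With the replicate number as a block, 231 members and 2824 windows were called higher. In deviations from the group means, same-numbered libraries correlated at 0.374, 0.0284 and 0.389, and different-numbered ones between -0.445 and 0.308. These values do not settle whether the numbers mark pairs, and the main fit did not take them as pairs. Of 637 alternative fits of 54 named genes, none changed sign. The rule that chose these members largely fixes that sign, so nothing is read from it. Of the same fits, 19 lost the threshold (in Cd4, Gm9696, Tas2r124, Cd8a and Pcdhb7) and 4 gained it, all in Olfr107. At low counts, windows under 10 CPM rest on few reads.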

Other observations

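Outside chromosomes 1 to 19, 7 windows met the same thresholds. On the X chromosome, 6 of 1229 did, and these were Mir1198, Rpl39, Rpl10, Gm14762, Mir361 and Gm15228, with knockout means between 3.11 and 11.8 CPM and wildtype means between 1.68 and 6.60 CPM. On the mitochondrial chromosome, ND6 averaged 6837 CPM in knockout libraries and 3793 CPM in wildtype libraries, a ratio of 1.80, and 1 of 15 windows met the thresholds. None of 309 windows on the Y chromosome did.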
